A study of Homo sapiens with 9 samples.

Results

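IRS4 and IGFBP5, a pair of genes of insulin and insulin-like growth factor (IGF) signalling, were followed in HEK293 cells, an established line derived from human embryonic kidney. They were taken by gene symbol from the annotation of the array, where each has 1 probe set, so they are 2 of the 14884 named genes and 2 of the 53617 probe sets measured. Both were chosen by their measured levels in the 3 groups, which were lower in the arrays labelled as overexpressing GPR39 than in mock. Their differences between the groups are therefore given as a description, with no test. The values are log2 signals per probe set, so a difference of 1 is a 2-fold change.

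All 9 arrays hold RNA of HEK293 cells kept in medium with fetal bovine serum, 3 arrays in each group. Mock cells are labelled naive and had no cumate, an inducer of cumate-controlled transgenes. Cells of the GPR39 group are labelled as overexpressing GPR39, a zinc-sensing G protein-coupled receptor, and had cumate at 0.03 mg/mL. Cells of the agonist group carry the same overexpression label and had TC-G-1008, a synthetic agonist of the receptor, at 1 uM, and the labels do not say whether they had cumate as well. No exposure time, clone or vector is named, and the replicates are called biological with no word on separate cultures. A p-value here therefore measures array-to-array spread, which may be technical. The receptor, cumate and any other difference between naive and overexpressing cells cannot be told apart in GPR39 against mock. In agonist against mock the receptor, the agonist, possible cumate and any such other difference cannot be told apart. In agonist against GPR39 the agonist and a possible lack of cumate cannot be told apart. The probe set of GPR39 itself read 2.43 to 2.65 and was below the 40th percentile of the array on all 9, so it does not check the labels.

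Insulin and the IGFs bind receptor tyrosine kinases, which phosphorylate docking proteins of the insulin receptor substrate (IRS) family. These recruit PI3 kinase and GRB2 and so feed the AKT and ERK arms. IRS4 is the family member that HEK293 cells are known for, and it couples to PI3 kinase with little of the feedback control known for IRS1 and IRS2. IGFBP5 is a secreted protein that binds IGFs and attaches to the extracellular matrix. It can hold IGFs away from their receptor or keep them near the cell, and proteases cut it to set them free.

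IGFBP5 lies on chromosome 2 from 216672105 to 216695549 and IRS4 on chromosome X from 108719946 to 108736563, both on the minus strand (RefSeq, GRCh38.p14). The antisense gene IGFBP-AS1 overlaps the start of IGFBP5 and IRS4-AS1 that of IRS4, and neither has a named probe set. Where the probes of IRS4 and IGFBP5 lie within the genes was not known here. Since the levels of both genes differed between the groups, the 250 bases before each start site are shown, 5′ to 3′ on the gene's strand, from chr2:216695550-216695799 and chrX:108736564-108736813. Capitals mark matches to the motifs searched.

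IGFBP5: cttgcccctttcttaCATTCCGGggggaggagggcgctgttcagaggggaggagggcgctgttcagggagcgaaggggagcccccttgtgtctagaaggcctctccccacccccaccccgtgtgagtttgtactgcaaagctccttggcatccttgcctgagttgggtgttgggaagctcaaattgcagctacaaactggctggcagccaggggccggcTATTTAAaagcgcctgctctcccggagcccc
IRS4: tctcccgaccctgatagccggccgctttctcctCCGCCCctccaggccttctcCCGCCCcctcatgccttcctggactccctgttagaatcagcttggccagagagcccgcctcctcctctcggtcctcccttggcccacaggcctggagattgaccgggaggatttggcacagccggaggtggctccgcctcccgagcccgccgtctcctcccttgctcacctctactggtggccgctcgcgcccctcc

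The windows differed in their letters. That of IGFBP5 held the A/T-rich box TATTTAA from 31 to 25 bases before the start, where a TATA box usually lies. The motif letters were chosen after the promoters were seen, so a match is not a test. Of 35116 such windows in the RefSeq table, 4.17% held TATTTAA. This and the other shares count a match anywhere in the 250 bases on either strand. The IGFBP5 window also held the TEAD motif CATTCC from 235 to 230 bases before the start (11.9% of windows). An ETS core, CCGGAA on the other strand, overlapped it from 233 to 228 (14.5% of windows). The IRS4 window held 2 matches to the Sp1 motif GGGCGG on the other strand, from 217 to 212 and from 197 to 192 bases before the start (42.6% of windows). IGFBP5 had none of those. Both strands were searched, and neither window matched the FOXO motif GTAAACA (2.98% of windows), the AP-1 motif TGANTCA (6.57%), the CRE TGACGTCA (1.65%), the E-box CACGTG (6.34%) or TATAAA (10.7%). The IRS4 window was 68.0% G and C with 16 CG pairs and that of IGFBP5 61.2% with 8, against medians of 58.0% and 11 over all windows. A further IRS4 start site in the table lies 186 bases downstream, within the longer transcript. A match is a description of the letters and not a binding site.

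**Figure D1:**
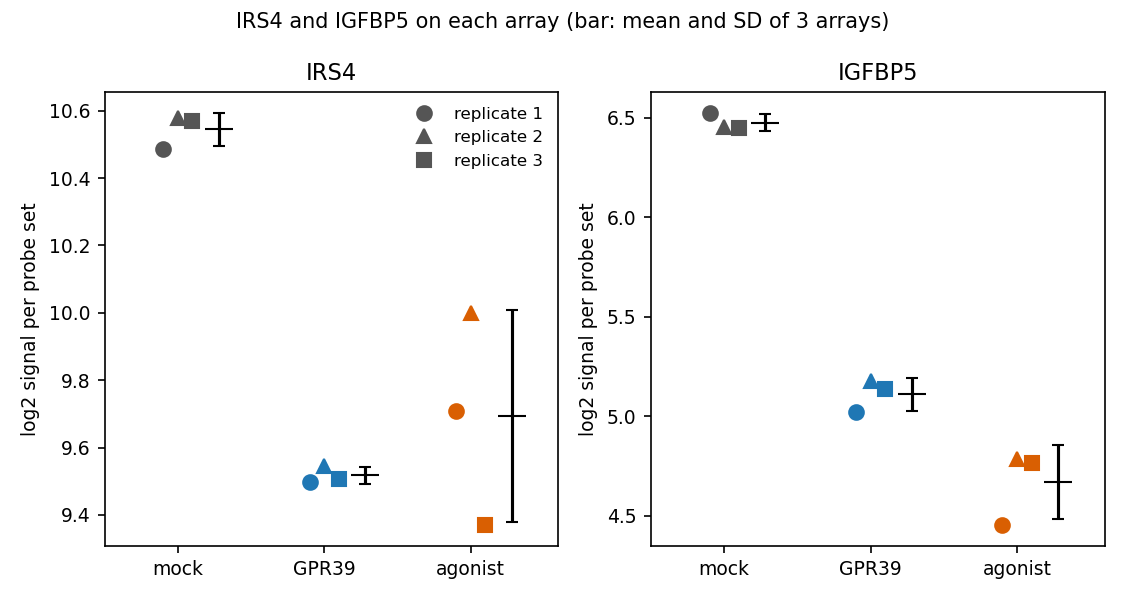
Log2 signal of IRS4 (left) and IGFBP5 (right) on each of the 9 arrays, with the mean and SD of each group of 3 beside the points; the vertical axes do not start at 0. The mock arrays lie above all others for both genes, and the agonist arrays lie below the GPR39 arrays for IGFBP5 but spread around them for IRS4.

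IRS4 was bright on every array and lower in both groups labelled with the receptor. The mock arrays read 10.49, 10.58 and 10.57, the GPR39 arrays 9.50, 9.55 and 9.51, and the agonist arrays 9.71, 10.00 and 9.37. All mock arrays lay above all others, the GPR39 arrays lay close together, and the agonist arrays were wide, with agonist replicate 2 highest and replicate 3 below every GPR39 array. The SD of the agonist arrays was 0.32, against 0.025 in GPR39 and 0.05 in mock, and 85.2% of the 33376 tested probe sets had a smaller SD in the agonist group. The mean difference of GPR39 from mock was -1.03 ± 0.14 (SE of the fit), or 49.1% of the mock signal, and the agonist mean stood at 55.4% of mock. In GPR39 against mock, 9.28% of all tested probe sets had every array below every mock array. In agonist against mock, where IRS4 also lay below without overlap, that share was 16.2%. These shares stand beside the members as background only.

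IGFBP5 was lower in GPR39 than in mock and lower again in the agonist group. The mock arrays read 6.52, 6.45 and 6.45, the GPR39 arrays 5.02, 5.18 and 5.13, and the agonist arrays 4.45, 4.79 and 4.76. No array of a group overlapped an array of another, so the order was mock, then GPR39, then agonist. The mean difference of GPR39 from mock was -1.37 ± 0.10, or 38.8% of the mock signal, and that of the agonist group from mock was -1.81 ± 0.10, or 28.6%. Of the 33376 tested probe sets, 107 were at least as far below mock in GPR39 and 23 in the agonist group, against 367 and 755 for IRS4.

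Between GPR39 and agonist the values are again a description. The mean difference of agonist from GPR39 was -0.44 ± 0.10 for IGFBP5, or 73.6% of the GPR39 signal, and 16.5% of tested probe sets lay lower in agonist without overlap. The gap was smallest without agonist replicate 1, the lowest array, at -0.33. For IRS4 the mean difference of agonist from GPR39 was 0.18 ± 0.14, with overlapping arrays and agonist replicates spread over more than that difference. The difference was 0.02 without agonist replicate 2 and 0.34 without agonist replicate 3.

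**Figure D2:**
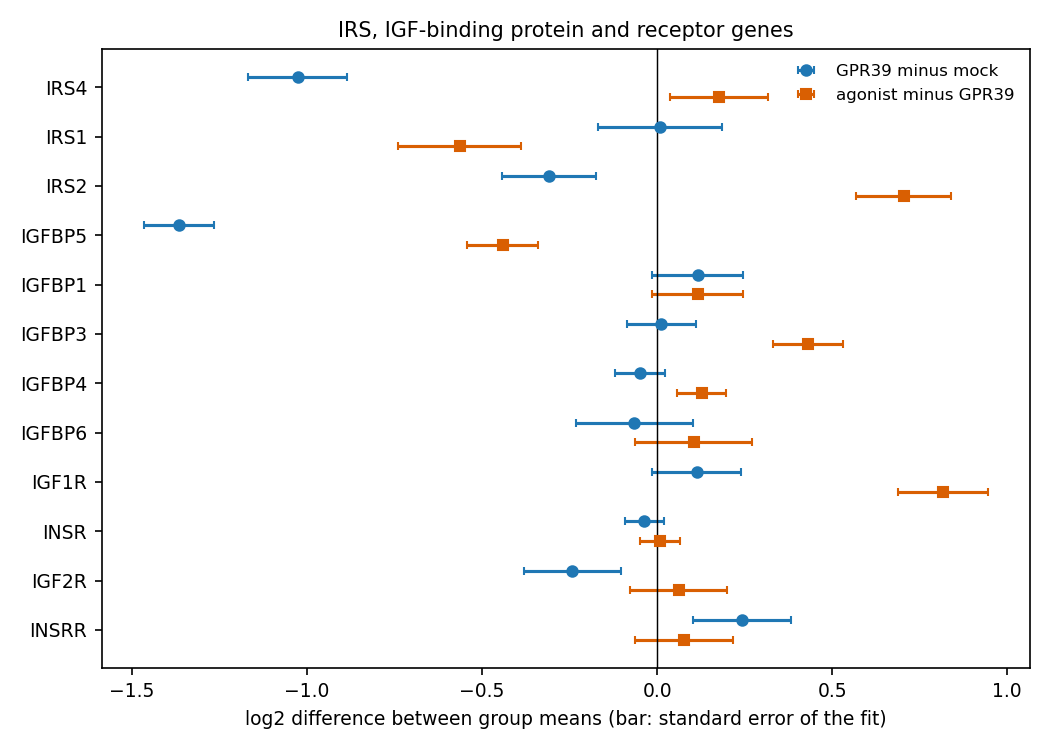
Log2 differences between group means, with the standard error of the fit, for the IRS genes, the IGF-binding protein genes and the receptor genes; circles are GPR39 minus mock and squares are agonist minus GPR39. IRS4 and IGFBP5, which were chosen for it, lie far left in GPR39 minus mock, while IGF1R, IRS2 and IGFBP3 lie right of 0 in agonist minus GPR39.

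The other insulin and IGF genes were taken from 13 lists by role, holding 188 genes beside IRS4 and IGFBP5. Of these, 119 have a named probe set and 114 passed the filter on dim values. The lists were chosen with earlier results of these data known, so their shares of calls are a description and not a test of enrichment. Some genes, such as HTRA1 and IRS2, stand in more than 1 list. In GPR39 against mock 2 of the 114 rose and 2 fell (3.51%), beside 1.17% of all tested probe sets (0.749% higher, 0.422% lower) and 1.64% of the 11915 named genes tested (1.03% higher, 0.604% lower). The risen genes were CCN2 and SGK1 and the fallen ones SESN3 and SCD. The median difference over the 114 was 0.03, and over all tested probe sets it was 0.01. Without 1 array these counts ran from 1 to 3 higher and from 0 to 4 lower. In agonist against GPR39 14 of 114 rose and 9 fell (20.2%), beside 9.06% of all tested probe sets (3.12% higher, 5.95% lower) and 13.3% of named genes (3.64% higher, 9.69% lower), with a median difference of 0.03 against 0.01. The rises numbered 9 without GPR39 replicate 1, 8 without GPR39 replicate 2 and 9 without agonist replicate 2. The falls numbered 3, 4 and 3 without GPR39 replicate 1, 2 or 3, 3 without agonist replicate 1 and 5 without agonist replicate 2. With each array centred on its median the split was 11 and 11. In agonist against mock 23 rose and 13 fell (31.6%), beside 15.0% of all tested probe sets (6.11% higher, 8.94% lower) and 21.8% of named genes (7.82% higher, 14.0% lower). Without mock replicate 3 or agonist replicate 2 the rises numbered 13, and median centring gave 16 rises and 14 falls.

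Among the ligands, IGF1, the main circulating IGF, was dim on all 9 arrays (1.93 to 2.40, below the 40th percentile). The relaxin gene RLN2 was above that percentile on 1 array only, and INSL3, a gonadal hormone of the same superfamily, lay between 3.24 and 3.53 with no call in any comparison (agonist minus GPR39 -0.01, adjusted p = 0.971). IGF2 and INS have no named probe set and were not analysed here.

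Of 4 receptor genes limma called 1 in agonist against GPR39, and it rose (25%, beside 13.3% of named genes called and 3.64% called higher). IGF1R, the IGF-I receptor tyrosine kinase, read 6.78, 7.27 and 7.27 in mock, 7.20, 7.19 and 7.27 in GPR39 and 8.03, 8.02 and 8.06 in the agonist arrays. The agonist arrays lay above all others and mock replicate 1 was low. IGF1R rose by 0.82 ± 0.13 in agonist against GPR39 (1.76-fold, adjusted p = 0.00782), while GPR39 against mock gave 0.11 ± 0.13 (adjusted p = 0.729). The insulin receptor gene INSR was flat, between 5.74 and 5.83 on all arrays, and agonist minus GPR39 had a 95% interval of -0.12 to 0.14. All its agonist arrays held the same value, 5.7601, so their SD was 0. IGF2R, which clears IGF-II and carries lysosomal enzymes, differed by -0.24 ± 0.14 in GPR39 against mock and by 0.06 ± 0.14 between agonist and GPR39 (adjusted p = 0.457 and 0.836). INSRR, an orphan relative of the insulin receptor, differed by 0.24 ± 0.14 and 0.08 ± 0.14 (adjusted p = 0.46 and 0.797).

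The other IRS genes had no call in GPR39 against mock. IRS2, the docking protein that links the insulin receptor to metabolic control in liver, read 5.28, 5.28 and 4.95 in mock, 4.95, 4.62 and 5.02 in GPR39 and 5.65, 5.61 and 5.44 in the agonist arrays. Every agonist array lay above every other array. IRS2 rose by 0.70 ± 0.14 in agonist against GPR39 (1.63-fold, adjusted p = 0.017), and the call was lost without agonist replicate 1 or 2 or GPR39 replicate 2 (adjusted p = 0.0576, 0.052 and 0.0502). GPR39 against mock gave -0.31 ± 0.14 (adjusted p = 0.34). IRS1, the docking protein of muscle and fat, gave 0.01 ± 0.18 in GPR39 against mock and -0.56 ± 0.18 between agonist and GPR39 (adjusted p = 0.991 and 0.0943), with agonist replicate 3 lowest at 3.75. Whether these genes differ from IRS4 in their response was not tested. Of 15 tested docking and adaptor genes beside IRS4, IRS2 was the 1 called in agonist against GPR39, or 6.67%, below the 13.3% of named genes. In GPR39 against mock limma called 0 of them, beside 1.64% of named genes, with 0 of them at an unadjusted p under 0.05.

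Of 13 receptor-proximal inhibitors, limma called 1 in agonist against GPR39 (7.69%, below the 13.3% of named genes called in either direction). It was the SOCS-box gene SOCS4, which rose (0.38 ± 0.09, adjusted p = 0.0329), and 3.64% of named genes were called higher. The call was lost without any 1 of the GPR39 arrays, agonist replicate 1 or 2, or mock replicate 2.

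None of the 4 other IGF-binding protein genes tested was called lower in any comparison. Of named genes, 0.604% were called lower in GPR39 against mock, 9.69% in agonist against GPR39 and 14.0% in agonist against mock. At those shares, the lack of a fall among 4 genes does not set IGFBP5 apart from them. IGFBP3, the main IGF carrier of serum, read 3.62, 3.80 and 3.68 in mock, 3.76, 3.70 and 3.68 in GPR39 and 4.05, 4.35 and 4.03 in the agonist arrays. It was level in mock and GPR39 and higher in all agonist arrays. IGFBP3 rose by 0.43 ± 0.10 in agonist against GPR39 (1.35-fold, adjusted p = 0.0333), but without agonist replicate 1 or 2, GPR39 replicate 1, 2 or 3, or mock replicate 3 the adjusted p lay between 0.0504 and 0.109. IGFBP4, which mostly holds IGFs back, differed by -0.05 ± 0.07 in GPR39 against mock and by 0.13 ± 0.07 between agonist and GPR39 (adjusted p = 0.791 and 0.334). IGFBP6, which prefers IGF-II, gave -0.07 ± 0.17 and 0.10 ± 0.17 (adjusted p = 0.892 and 0.762). IGFBP1, a liver gene under insulin and FOXO control, was low, between 2.62 and 3.18, and gave 0.12 ± 0.13 in each (adjusted p = 0.725 and 0.649). IGFBP2, the neighbour of IGFBP5 on chromosome 2, has no named probe set and was not analysed here.

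Of 8 tested genes for proteases that cut IGF-binding proteins, and for their inhibitors, limma called 0 in GPR39 against mock. In that comparison 1.64% of named genes were called, and 2 of the 8 had an unadjusted p under 0.05. Of the same 8, 3 rose and 2 fell in agonist against GPR39 (62.5%, against 13.3% of named genes), and 4 rose and 3 fell in agonist against mock (87.5%, against 21.8%). As the list was chosen with earlier results of these data known, the choice may have built in part of these shares. STC1, a stanniocalcin that blocks the IGFBP protease PAPP-A, read 6.09, 5.83 and 5.99 in mock, 6.32, 6.46 and 6.39 in GPR39 and 8.29, 8.26 and 8.06 in the agonist arrays. The groups stood in 3 separate steps. STC1 rose by 1.81 ± 0.10 in agonist against GPR39 (3.51-fold, adjusted p = 4.5e-05), and its 0.42 ± 0.10 in GPR39 against mock did not pass (adjusted p = 0.0971). Its relative STC2, which inhibits PAPP-A and PAPP-A2, gave 0.39 ± 0.08 in GPR39 against mock and did not pass (adjusted p = 0.0746). The STC2 arrays did not overlap there, but 11.4% of all tested probe sets lay higher without overlap in that comparison. STC2 rose by 0.86 ± 0.08 in agonist against GPR39 (adjusted p = 0.00098). HTRA1, a secreted serine protease that cuts IGFBP5, read 6.72, 6.77 and 6.56 in mock, 6.61, 6.52 and 6.52 in GPR39 and 6.01, 5.99 and 6.01 in the agonist arrays. It fell by 0.54 ± 0.07 in agonist against GPR39 (adjusted p = 0.00446). MMP1, a collagenase, rose by 1.45 ± 0.25 in agonist against GPR39 (adjusted p = 0.0105), from 2.94 to 4.39 with agonist replicate 2 highest at 5.05. All 3 mock arrays of MMP1 were below the 40th percentile and below every GPR39 array (adjusted p = 0.416), so agonist stood at least 1.74 above mock. CTSD, a lysosomal protease, fell by 0.33 ± 0.08 in agonist against GPR39 (adjusted p = 0.0478), a call lost without any 1 of the agonist or GPR39 arrays or without mock replicate 1 or 2. PAPPA2, which encodes a protease that cuts IGFBP5, rose in agonist against mock by 0.37 ± 0.07 (adjusted p = 0.0127) and gave 0.15 ± 0.07 and 0.22 ± 0.07 in the steps between (adjusted p = 0.395 and 0.117). ADAM9, a further protease known to cut IGFBP5, gave 0.13 and -0.10 in those steps (adjusted p = 0.361 and 0.336).

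A further list holds genes that encode an IGFBP-like domain without being classical IGF carriers. CCN2, connective tissue growth factor, read 7.09, 6.85 and 6.82 in mock, 9.37, 9.51 and 9.49 in GPR39 and 10.06, 10.22 and 10.06 in the agonist arrays, so it stepped up where IGFBP5 stepped down. Of 13 tested, CCN2 was the 1 gene called in GPR39 against mock (7.69%, beside 1.64% of named genes). Its rise was 2.54 ± 0.09 (adjusted p = 1.63e-05). Agonist against GPR39 added a rise of CCN2 by 0.66 ± 0.09 (adjusted p = 0.00505) and the fall of HTRA1. A dimmer probe set of CCN2 rose in both steps too (3.13 and 0.74, adjusted p = 4.79e-05 and 0.021). These 2 calls are 15.4% of the list, beside 13.3% of named genes. In agonist against mock 3 rose and 1 fell (30.8%, beside 21.8%), namely CCN2 and HTRA1 with ESM1, which encodes a secreted proteoglycan, and CRIM1, which encodes a membrane protein that binds BMPs. ESM1 rose by 0.64 ± 0.16 and CRIM1 by 0.44 ± 0.10 (adjusted p = 0.0289 and 0.0267). The call of ESM1 was lost without agonist replicate 1 or 2 or mock replicate 2 or 3, and that of CRIM1 without any 1 of the agonist arrays or mock replicate 1 or 2. The relatives CCN3, CCN4, CCN5 and CCN6 had no call in either step.

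**Figure D3:**
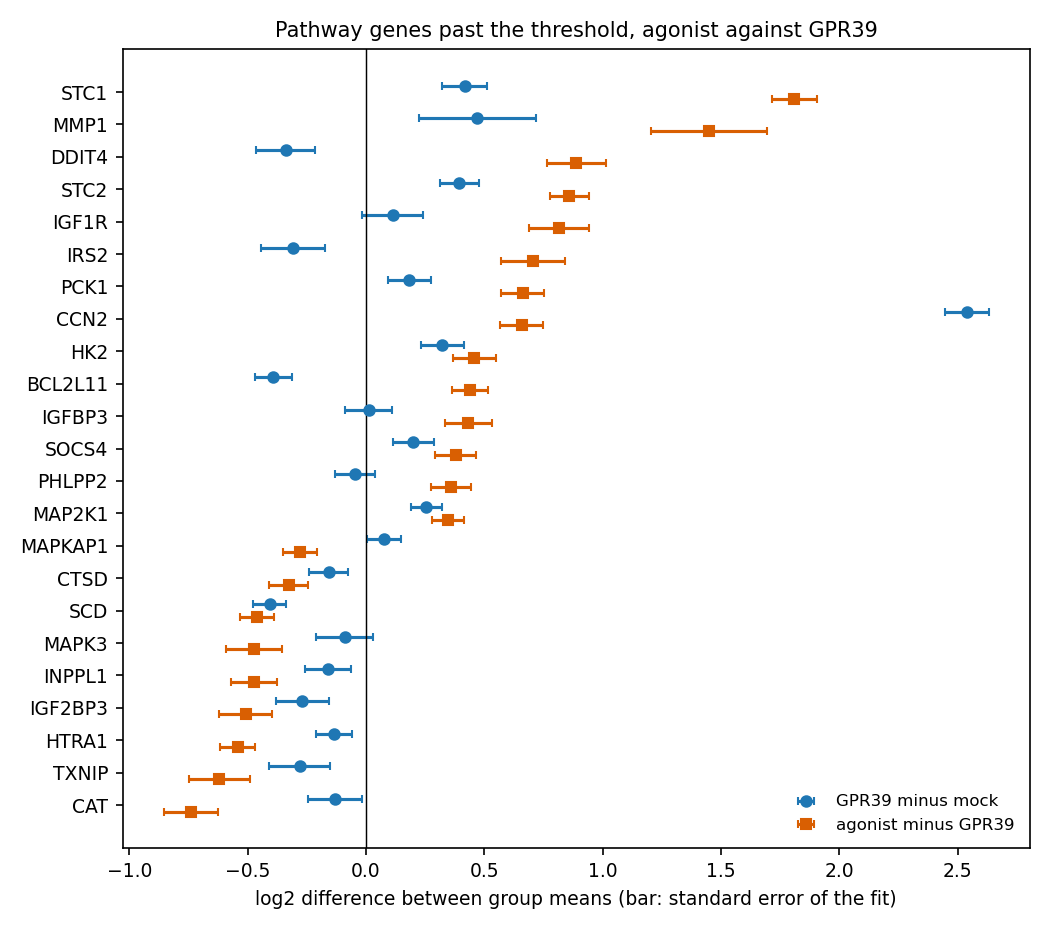
Log2 differences with the standard error of the fit for the 23 insulin and IGF pathway genes past the threshold in agonist against GPR39, ordered by that difference; squares are agonist minus GPR39 and circles are GPR39 minus mock. STC1 and MMP1 lie farthest right at 1.81 and 1.45, CAT farthest left at -0.74, and CCN2 is the 1 gene whose GPR39 minus mock difference, 2.54, is larger than all of them.

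Downstream of the receptors, changes were mixed. Of 6 tested PI3K and AKT genes 2 were called in agonist against GPR39 (33.3%, beside 13.3% of named genes): the phosphatase gene PHLPP2 rose and INPPL1, which encodes a lipid phosphatase, fell (0.36 and -0.47, adjusted p = 0.0357 and 0.021). The call of PHLPP2 was lost without any 1 of the GPR39 arrays, agonist replicate 1 or 2, or mock replicate 2 or 3, and that of INPPL1 without any 1 of the GPR39 arrays or agonist replicate 1 or 2. AKT1 and AKT2 gave -0.38 and -0.19 with no call (adjusted p = 0.136 and 0.0779). Of 17 TSC, mTOR and AKT substrate genes 1 rose and 1 fell in that comparison (11.8%, below the 13.3% of named genes). DDIT4, an mTORC1 inhibitor, rose by 0.89 ± 0.12 (adjusted p = 0.00492), from 5.82, 5.95 and 5.58 to 6.47, 6.68 and 6.85. MAPKAP1, an mTORC2 subunit gene, fell by 0.28 (adjusted p = 0.0482, lost without any 1 of the 9 arrays). SGK1, a kinase related to AKT, rose in GPR39 against mock by 0.57 ± 0.09 (adjusted p = 0.033), a call kept only without mock replicate 1 or 3, with adjusted p between 0.057 and 0.129 without each of the other arrays. In the RAS and ERK arm, 1 of 7 tested genes rose and 1 fell in agonist against GPR39 (28.6%, beside 13.3% of named genes). MAP2K1 rose by 0.35 ± 0.07 and MAPK3 fell by 0.47 (adjusted p = 0.0176 and 0.046). MAP2K1 lost its call without GPR39 replicate 1 or 2 or agonist replicate 2, and MAPK3 without any 1 array but agonist replicate 3.

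FOXO factors are switched off by AKT, so their target genes are a common readout of this pathway. In agonist against GPR39 3 of 20 factors and targets rose and 2 fell (25%, against 13.3% of named genes). IRS2 was among the risen. PCK1, a gluconeogenic enzyme gene, rose by 0.66 ± 0.09 (adjusted p = 0.00449) between dim levels of 2.71 and 3.38, and BCL2L11, a pro-death BCL2 family gene, by 0.44 ± 0.08 (adjusted p = 0.0123, and 0.051 without GPR39 replicate 1). CAT, the catalase gene, fell by 0.74 ± 0.11 (adjusted p = 0.00716) and TXNIP, which restrains glucose uptake, by 0.62 (adjusted p = 0.022, lost without GPR39 replicate 1 or 3 or agonist replicate 1 or 3, with its other probe set too dim to test). The factors FOXO1, FOXO3 and FOXO4 had no call in any comparison. SESN3, a sestrin gene, read 7.46, 7.24 and 7.25 in mock, 6.53, 6.55 and 6.69 in GPR39 and 6.92, 7.16 and 6.81 in the agonist arrays. The GPR39 arrays were the lowest and did not overlap the others. SESN3 fell in GPR39 against mock by 0.72 ± 0.11 (adjusted p = 0.0246, between 0.0708 and 0.104 without mock replicate 2 or 3 or any 1 of the GPR39 arrays).

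Of 7 genes of glucose use and lipid synthesis, 1 rose and 1 fell in agonist against GPR39 (28.6%, beside 13.3% of named genes). In GPR39 against mock limma called 1, which fell (14.3%, beside 1.64% of named genes called and 0.604% called lower). HK2, a hexokinase gene, rose by 0.46 ± 0.09 in agonist against GPR39 (adjusted p = 0.0183, and 0.0711 and 0.0624 without GPR39 replicates 2 and 3). SCD, which encodes the desaturase of fatty acid synthesis, fell in GPR39 against mock by 0.41 ± 0.07 (adjusted p = 0.0401, and at least 0.0655 without any 1 array but mock replicate 1) and again between GPR39 and agonist by 0.46 ± 0.07 (adjusted p = 0.00712). A dimmer SCD probe set had no call in either step (-0.32 and -0.25, adjusted p = 0.258 and 0.244). The SCD arrays of the brighter one stood in separate steps as for IGFBP5, at 9.62, 9.66 and 9.62, then 9.10, 9.31 and 9.26, then 8.74, 8.79 and 8.76. Of 3 genes for IGF2 mRNA-binding proteins, limma called 1 in agonist against GPR39 (33.3%, beside 13.3% of named genes called and 9.69% called lower). This was IGF2BP3, which fell by 0.51 (adjusted p = 0.0281, lost without any 1 of the GPR39 arrays or agonist replicate 1 or 3). None of the pathway calls above changed sign with either centring, quantile normalization or an array left out. The other settings leave a difference of group means unchanged, so they could not change a sign. Many calls were lost under at least 1 setting or array left out. Those kept under all of them were 1 of 4 in GPR39 against mock, 10 of 23 in agonist against GPR39 and 19 of 36 in agonist against mock.

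**Figure D4:**
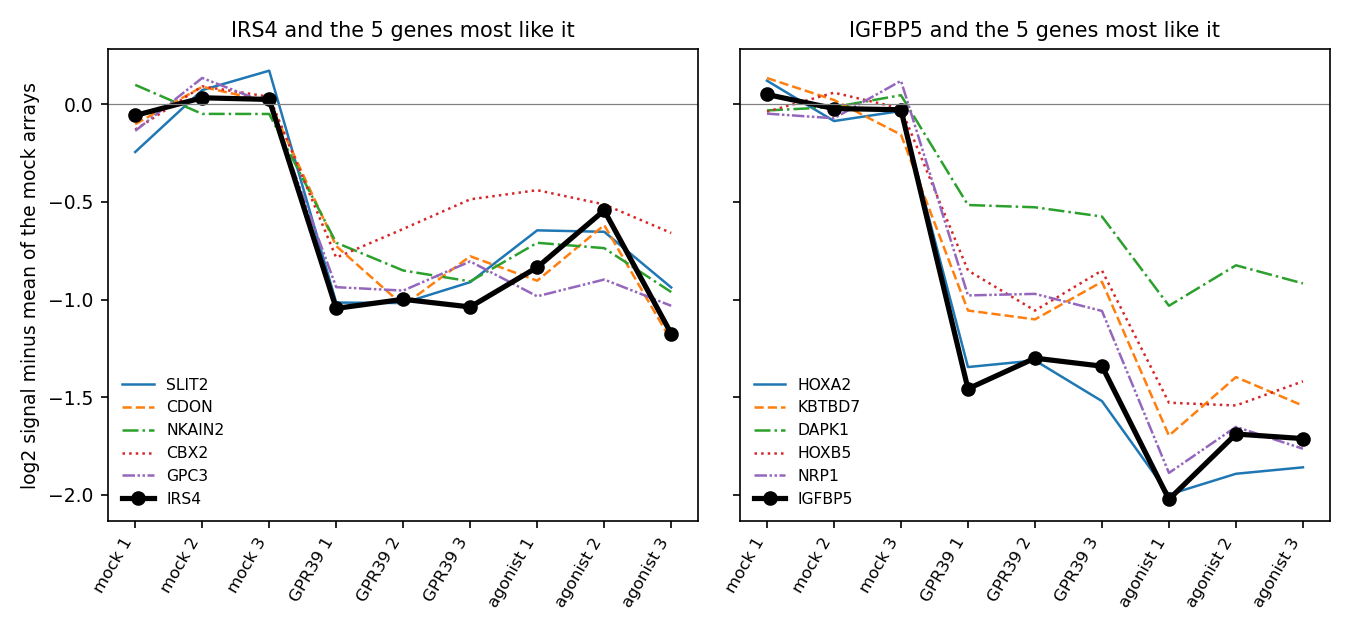
Log2 signal minus the mean of the 3 mock arrays on each of the 9 arrays, for IRS4 with the 5 genes most like it (left) and IGFBP5 with the 5 genes most like it (right), by Pearson's r over the 9 arrays. The genes on the left step down once, between mock and GPR39, and those on the right step down again in the agonist arrays.

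Likeness to the pair was measured by Pearson's r over the 9 arrays, among 1369 other genes whose group means span at least 1.5-fold. As the arrays fall into 3 groups, r mostly reflects differences between group means, and it is given as a description. The genes most like IRS4 were the guidance gene SLIT2 (r = 0.96), CDON, which encodes a cell-surface hedgehog co-receptor (0.96), NKAIN2 (0.95), the Polycomb gene CBX2 (0.94) and the glypican gene GPC3 (0.94). SLIT2 read 9.04, 9.36 and 9.45 in mock, 8.27, 8.27 and 8.37 in GPR39 and 8.64, 8.63 and 8.35 in the agonist arrays. CDON had agonist arrays at 5.43, 5.71 and 5.12. CDON and GPC3 shared with IRS4 the order of agonist replicates, in which replicate 2 was highest and 3 lowest. SLIT2, NKAIN2 and CBX2 did not. As all were picked by r over the same arrays, a shared order is partly built in. The most opposite were TMEM45B (-0.97), MYPN, which encodes a sarcomere protein (-0.96), and the caveola gene CAVIN1 (-0.96).

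The genes most like IGFBP5 were HOXA2 (r = 0.99), KBTBD7 (0.99), the death-associated kinase gene DAPK1 (0.98), HOXB5 (0.97) and the semaphorin co-receptor gene NRP1 (0.97). HOXA2 read 5.69, 5.49 and 5.54 in mock, 4.23, 4.26 and 4.05 in GPR39 and 3.58, 3.68 and 3.72 in the agonist arrays. The most opposite were the collagenase gene MMP13, the pseudogene GGT3P and the early-response gene IER3 (all -0.99). More genes had r above 0.95 with IGFBP5 (23) than with IRS4 (3). IRS4 and IGFBP5 had r = 0.87 with each other, which placed IGFBP5 at rank 28 in likeness to IRS4 and IRS4 at rank 187 in likeness to IGFBP5. Without mock replicate 1, 2 of the 5 genes most like IRS4 and 1 of the 5 most like IGFBP5 stayed in their 5, so the ranking rests on small differences of r.

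No tested chromosomal neighbour was called lower in GPR39 against mock, where 0.604% of named genes were. At that share, the lack of such a call among so few genes says nothing about the regions. Of 3 on each side of IRS4, TEX13B was too dim to test, and ACSL4, which encodes a long-chain acyl-CoA synthetase and lies 905 kb away, rose in GPR39 against mock by 0.58 ± 0.06 (adjusted p = 0.00651). MID2, VSIG1, NXT2 and KCNE5 had no call in that comparison, with adjusted p from 0.363 to 0.951. Of those around IGFBP5, TNP1 and DIRC3 were too dim to test, and RPL37A, LINC01963, XRCC5 and TNS1 had no call, with adjusted p from 0.256 to 0.975. The nearest named neighbour of IGFBP5 lies 164 kb away and that of IRS4 641 kb away, so closer genes were not analysed here.

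Markers were checked against the label of the cells. All 13 named markers of embryonic kidney and other HEK293 features, among them LHX1, SALL1 and LIN28B, were above the 40th percentile on all 9 arrays. The dimmest, PAX8, read 2.68 to 3.06, close to that percentile, which ran from 2.63 to 2.70. The summed linear signal of the 13 was 1430 to 1510 in mock, 1520 to 1570 in GPR39 and 1250 to 1290 in agonist. Of these 13, limma called 0 in GPR39 against mock, and 1 higher and 3 lower in agonist against GPR39 (3.64% and 9.69% of named genes). The higher one was SIX2, and the lower ones were EYA1, KRT19 and LIN28B. In agonist against mock it called 1 higher and 4 lower (7.82% and 14.0% of named genes). Of 3 named fibroblast markers DCN and LUM were below the 40th percentile on every array and THY1 above it on all 9. Of 3 endothelial markers PECAM1 was below it on every array, KDR above it on all 9 and VWF on 8. Of 3 hepatocyte markers ALB was below it on every array, and APOA1 and TTR were above it on all 9. As markers of other cell types also passed this cut, passing it does not check the label. The fibroblast, endothelial and hepatocyte lists had summed signals of 16.3 to 18.3, 17.4 to 20.3 and 35.5 to 46.4 over all arrays. The sum of the 4 named leukocyte markers ran from 108 to 135 in mock, 214 to 218 in GPR39 and 242 to 281 in agonist. CD68, a lysosomal glycoprotein gene and the brightest of them, had means of 6.66, 7.56 and 7.90. It was called higher in GPR39 against mock (0.90 ± 0.12, adjusted p = 0.0124) and in agonist against mock (1.23 ± 0.12, adjusted p = 4e-04). TYROBP, an adaptor gene of myeloid and NK cells, had means of 2.85, 3.34 and 3.53, with no call in agonist against mock (adjusted p = 0.0719). All its agonist arrays lay above all mock arrays, as for 14.8% of tested probe sets. LAPTM5 and CD14 stayed between 3.10 and 3.26 and between 2.76 and 2.85. The part of these markers in the levels of IRS4 and IGFBP5 was not tested. On bulk arrays, fewer cells with a transcript and less of it per cell cannot be told apart. Over all probe sets mock replicate 1 had a mean r of 0.988 with the GPR39 arrays and of 0.985 with its own group. Without it the mean differences of GPR39 from mock were -1.06 for IRS4 and -1.34 for IGFBP5.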

How the data were processed

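RNA of 9 HEK293 samples was read on Affymetrix arrays of 1 colour. The deposited log2 signal per probe set was taken as log2 because the values run from 0.717 to 13.4977. The submitters' processing notes name MAS5, and whether it alone gave these values was not checked. No source used here gives its version, the background correction, the normalization or the log step. Some probe sets, such as that of INSR, hold exactly equal values on several arrays, and the cause of this was not tested. The values were used as deposited. Precision is limited by the number of arrays.

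A probe set was tested if it exceeded the 40th percentile of the array on at least 3 of 9 arrays (33376, of which 11915 genes are named by GEO's platform annotation, with symbols updated by Entrez identifier in RefSeq GRCh38.p14). All 9 arrays were fitted with lmFit and eBayes in limma 3.58.1 (R 4.3.3; 6 residual and 2.12 prior degrees of freedom), two-sided, with Benjamini-Hochberg adjustment over all tested probe sets and a threshold of 0.05. Errors are SDs over 3 arrays or standard errors of the fit. A gene with several probe sets was counted by the brightest. The fit was tested on simulated data (33376 probe sets). In each comparison 67 probe sets were changed 1.5-fold, 67 were changed 2-fold and 66 were changed 4-fold. In the data many more, 3025, were called in agonist against GPR39, so recovery there may differ. The fit recovered 67.2% of 2-fold changes, both for GPR39 against mock and for agonist against GPR39. Of 1.5-fold changes it recovered 38.8% and 31.3% in these comparisons, so a gene with no call may still differ by that much.

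The members, gene lists and tests were chosen with earlier results of these data known, and the motif letters after the promoters were seen. A planned test of the pair in agonist against GPR39 is not reported, as its levels in all 3 groups were known when it was chosen. Named genes are the pair, the ligand, receptor, IRS and IGFBP genes, up to 12 called pathway genes per comparison by smallest p, the genes most like and opposite the pair, and 3 neighbours on each side; SOCS4, CTSD, PAPPA2, ADAM9, PHLPP2, INPPL1, MAPKAP1, MAPK3, MAP2K1, TXNIP, HK2, IGF2BP3, AKT1, AKT2, FOXO1, FOXO3, FOXO4 and CCN3 to CCN6, ESM1, CRIM1, where outside that rule, were added after their values were seen.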

Additional observations from a re-analysis of the deposited data

How the results depend on the processing

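Each comparison was refitted under 9 other settings and without each array in turn. A difference of group means can move only with centring on the median or 75th percentile, quantile normalization or an array left out. The other settings leave such a difference unchanged by construction, so they do not check it. The IRS4 difference between agonist and GPR39 stayed positive. It was 0.13 to 0.19 over the centrings and quantile normalization, and 0.02 to 0.34 without 1 array. The IGFBP5 difference stayed negative, at -0.49 to -0.43 over the centrings and quantile normalization and -0.50 to -0.33 without 1 array. Against mock, centring on the 75th percentile moved IRS4 in GPR39 to -0.97. Without 1 array, IRS4 stayed between -1.06 and -1.01 and IGFBP5 between -1.40 and -1.32 in GPR39, and between -1.0044 and -0.69 and between -1.87 and -1.70 in agonist.

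Pathway genes lower in GPR39 against mock, 2 as reported, numbered 1 with no filter, with either centring or with the 2 groups alone, and 4 with a filter at the 60th percentile. Those higher numbered 4 with a trended prior and 1 with the 2 groups alone. With the 2 groups alone, 5 were lower in agonist against GPR39 and 12 higher in agonist against mock. Without 1 array, higher and lower counts ran from 1 to 3 and 0 to 4 in GPR39 against mock, from 8 to 14 and 3 to 8 in agonist against GPR39, and from 13 to 20 and 9 to 14 in agonist against mock. Of the calls reported, 1 of 4, 10 of 23 and 19 of 36 were kept under every setting and array left out. Over all probe sets, calls in GPR39 against mock (250 higher, 141 lower) became 397 and 240 with the 60th percentile filter, 428 and 242 with the trended prior, and 128 and 62 with the 2 groups alone. They became 419 and 905 without mock replicate 1 and fewer without any other array, from 87 to 197 higher and 21 to 106 lower. With the 2 groups alone, those in agonist against mock became 1279 and 1854, from 2039 and 2983. Centring on the 75th percentile moved the share of these calls that are higher from 63.9% to 74.7% in GPR39 against mock and from 40.6% to 56.2% in agonist against mock.

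The replicate numbers did not pair the arrays: correlations of same-numbered deviations ran from -0.101 to 0.065, and 2 of 9 arrays correlated best with their own number. With the replicate number as a block, IGFBP5 in agonist against GPR39 was -0.44, and pathway calls numbered 1 higher and 0 lower in GPR39 against mock (21 of 114 had an unadjusted p under 0.05 in limma without the block), 11 and 4 in agonist against GPR39, and 18 and 10 in agonist against mock. Over all probe sets 102 were then higher and 48 lower in GPR39 against mock, beside 250 and 141 without it, and 686 and 1133 in agonist against GPR39, beside 1040 and 1985.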
